A study of Mus musculus with 10 samples.

Results

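The connexin genes Gja1, Gjb1, Gjb2 and Gjb6 were followed in the cochlea of 2 mouse strains with and without noise exposure. They were chosen by platform gene symbol, and all probe sets carrying one of these symbols were taken, which gave 7 of the 12488 probe sets of the array, for 4 of its 8251 named genes. Gjb6 was measured by 3 probe sets, Gja1 by 2, and Gjb1 and Gjb2 by 1 each. The RNA came from female mice aged 10 weeks of the inbred strain 129X1/SvJ, which resists noise damage, and of B6.CAST, a C57BL/6J strain that carries a CAST segment around the cadherin gene Cdh23. Noise was given once for 1 h, at 105 dB SPL in an octave band at 10 kHz, and the cochleae were taken 6 h after it, while controls had a sham stay in the noise chamber. RNA of 8 mice was pooled for an array, and there were 3 arrays of each 129X1/SvJ group and 2 of each B6.CAST group. The labels describe the tissue as dissected membranous labyrinth, so all cell types of the inner ear epithelia, connective tissue and nerve are mixed, and fewer cells of a type and less RNA per cell cannot be told apart.

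Connexins are membrane proteins that assemble into channels, and channels of neighbouring cells dock to form gap junctions that pass ions and small metabolites from cell to cell. In the cochlea, Gjb2 (connexin Cx26) and Gjb6 (Cx30) are the main connexins of the supporting cells around the hair cells and of the fibrocytes of the spiral ligament and limbus, and their networks are held to carry potassium and signalling molecules through the epithelium and connective tissue. Mutations of the human genes GJB2 and GJB6 cause inherited deafness. Gjb1 (Cx32) is best known from myelinating Schwann cells and liver, and Gja1 (Cx43) from bone cells, astrocytes and heart muscle.

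Signals are linear intensities as deposited, and changes are differences of normalised log2 values from limma with their standard errors (SE). A probe set was called when its p-value, adjusted by the Benjamini-Hochberg method over the 8695 probe sets past a filter on low signals, was under 0.05. Of the 7 connexin probe sets 6 passed the filter. The exception was 161607_r_at of Gjb6, with signals between 0.5 and 15.8 on the 10 arrays, for which no change is given. Markers of the tissue were present on every array: the fibrocyte gene Coch lay between 12604 and 20801.2, the melanocyte gene Dct of the stria vascularis between 6961.6 and 15272, the peripheral myelin gene Pmp22 between 4149.3 and 6907.6, the supporting cell gene Sox2 between 439.8 and 1115.5 and the hair cell gene Myo7a between 255.5 and 372.2. RNA integrity was read from Gapdh, whose 3′ control signal divided by its 5′ control signal lay between 0.79 and 1.40 on 8 arrays. This ratio reached 29.2 on control array 2 of 129X1/SvJ and 6.94 on noise array 1 of B6.CAST. Noise array 1 of 129X1/SvJ correlated least with the rest, at a mean r of 0.910, where all others reached 0.943 to 0.955.

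Gjb2 and Gjb6 lie next to each other on mouse chromosome 14, in a row with Gja3 and with no other protein-coding gene between them in the RefSeq annotation. Their upstream sequences are shown because these neighbours are usually described as partners in the same cells. Here 1 of 2 tested probe sets of Gjb6 passed a strain comparison, averaged over control and noise-exposed mice. Gjb2 was also higher in B6.CAST in that comparison without passing (0.37 ± 0.16, adjusted p = 0.293 in limma). The strain effects of the genes were not compared by a test. The 250 bases before the annotated start are given 5′ to 3′ on the coding strand from RefSeq (GRCm38.p6, minus strand in both cases), at chr14:57104703-57104952 for Gjb2 and chr14:57133612-57133861 for Gjb6. Capitals mark the GC box, searched as GGGCGG on both strands.
Gjb2 upstream: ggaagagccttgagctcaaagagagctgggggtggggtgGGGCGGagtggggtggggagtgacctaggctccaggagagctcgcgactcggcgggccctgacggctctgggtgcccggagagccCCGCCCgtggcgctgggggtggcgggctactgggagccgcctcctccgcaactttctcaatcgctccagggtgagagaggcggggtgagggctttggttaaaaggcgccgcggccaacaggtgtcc
Gjb6 upstream: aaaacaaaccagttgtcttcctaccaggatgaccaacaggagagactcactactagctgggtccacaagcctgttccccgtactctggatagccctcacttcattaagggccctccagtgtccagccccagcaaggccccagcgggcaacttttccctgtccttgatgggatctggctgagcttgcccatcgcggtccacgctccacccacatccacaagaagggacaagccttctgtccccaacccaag
The Gjb2 window held 2 GC boxes and 18 CpG dinucleotides, and the Gjb6 window held no GC box and 5 CpG dinucleotides. Among 32841 windows of the same length, 32.7% held a GC box and the median CpG count was 6. Neither window held the TATA box TATAAA on either strand, which 12.4% of all windows held. These letters are those of C57BL/6J, and the 129X1/SvJ sequence was not used here.

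No connexin changed with noise past the threshold in either strain, and between strains 1 probe set of Gjb6 passed, when control and noise-exposed mice were averaged. Of the 6 tested probe sets, 0 passed in limma for noise in 129X1/SvJ, where 0.506% of all probe sets passed, and 1 of 6 had an unadjusted p under 0.05, against 11.5% of all. For noise in B6.CAST the counts were 0 of 6 beside 0.0460%, and 1 of 6 beside 2.10% at the unadjusted p. For the mean noise effect they were 0 beside 0.460%, and 1 beside 7.63%. The median noise effect of the 6 probe sets was -0.21 in 129X1/SvJ and 0.02 in B6.CAST, against -0.04 and 0.006 over all probe sets. The strain comparisons gave 0 of 6 in control mice beside 0.920%, with 1 at the unadjusted p beside 11.1%, and 0 of 6 in noise-exposed mice beside 1.45%, with 2 beside 10.6%. Averaged over both conditions, a comparison chosen after seeing the data, 1 of 6 passed beside 3.24% and 2 had an unadjusted p under 0.05 beside 15.3%. Set against these shares, the counts alone are no result about the connexins.

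Gjb2 did not pass in any comparison. Its signal in 129X1/SvJ was 13048.5, 15558.9 and 15697.6 without noise and 9074.9, 14795.2 and 13047.3 after noise. In B6.CAST it was 14755.2 and 24581.1 without noise and 17623.9 and 19231.5 after noise. The groups overlapped in both strains, and the lowest value was on noise array 1 of 129X1/SvJ, the array of lowest mean correlation. The noise effect was -0.37 ± 0.20 on the log2 scale in 129X1/SvJ (SE, n = 3 noise and 3 control arrays, adjusted p = 0.492 in limma) and -0.05 ± 0.25 in B6.CAST (SE, n = 2 and 2, adjusted p = 0.9999). The 95% intervals of these effects ran from -0.81 to 0.07 and from -0.59 to 0.50. Without noise array 1 of 129X1/SvJ the effect in that strain was -0.15.

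Between strains, the Gjb2 signal of noise-exposed B6.CAST mice lay above that of all noise-exposed 129X1/SvJ mice. The difference was 0.54 ± 0.23 (B6.CAST minus 129X1/SvJ, 95% interval 0.04 to 1.03), with an unadjusted p of 0.0364 in limma and an adjusted p = 0.415. Groups that did not overlap were found for 25.3% of all probe sets in this comparison. The difference was 0.32 without noise array 1 of 129X1/SvJ (adjusted p = 0.747) and 0.69 without noise array 3 (adjusted p = 0.228). In control mice the difference was 0.21 ± 0.23 and the groups overlapped. From lowest to highest mean, the order was noise-exposed 129X1/SvJ, control 129X1/SvJ, noise-exposed B6.CAST and control B6.CAST. On normalised log2 values, by which overlaps between groups of a connexin were judged, each group overlapped the next.

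**Figure D1:**
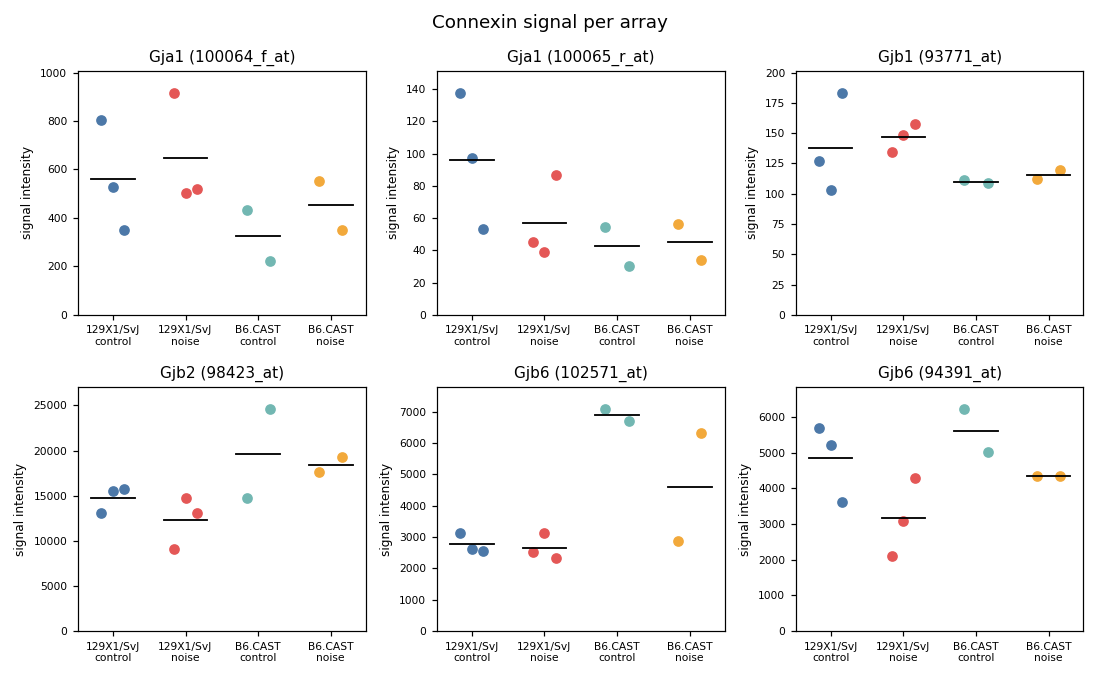
Signal intensity (linear, deposited scale, each panel with its own axis from 0) of the 6 connexin probe sets past the filter, with a point for each array and a line at the group mean. In the panel of Gjb6 102571_at, 3 of 4 B6.CAST arrays lie between 6326.5 and 7080.2, while the 6 arrays of 129X1/SvJ lie between 2343.7 and 3129.6 and noise array 1 of B6.CAST at 2882.2.

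Both tested probe sets of Gjb6 had higher means in B6.CAST, and 1 of these 2 passed in the averaged comparison. On 102571_at, the signal of 129X1/SvJ was 3127, 2616.3 and 2550.4 without noise and 2511.6, 3129.6 and 2343.7 after noise. In B6.CAST it was 7080.2 and 6688.3 without noise and 2882.2 and 6326.5 after noise. All B6.CAST arrays but 1 were thus above every array of 129X1/SvJ, and the exception, noise array 1, lay inside the range of 129X1/SvJ. In control mice the difference was 1.31 ± 0.27 on the log2 scale (SE, n = 2 B6.CAST and 3 129X1/SvJ arrays), a 2.47-fold higher level in B6.CAST with a 95% interval of 1.63-fold to 3.75-fold. Its adjusted p in limma was 0.0529, just above the threshold (unadjusted p = 0.000542), although the groups did not overlap, as for 29.9% of all probe sets. The call turned on which arrays entered the fit, through the estimated spread and the number of arrays compared. The adjusted p was 0.00298 without noise array 1 of B6.CAST and again 0.00298 without noise array 2, each of which leaves that group a single array and so takes its spread out of the estimate. It was 0.00406 with the 5 control arrays alone, and it rose to 0.342 and 0.27 without the first and the second control array of B6.CAST.

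In noise-exposed mice the difference of 102571_at was 0.65 ± 0.27 with an adjusted p = 0.416, and it was 1.25 with an adjusted p = 0.0272 without noise array 1 of B6.CAST. Without noise array 2, whose value was high, it was 0.05. Averaged over control and noise-exposed mice, the difference was 0.98 ± 0.19 (SE, n = 4 B6.CAST and 6 129X1/SvJ arrays, adjusted p = 0.0177), which was the only connexin call in the fit to all arrays. It lost the threshold without either control array of B6.CAST (adjusted p = 0.0764 and 0.0638) and without the third control array of 129X1/SvJ (0.051). By the order of the means, control B6.CAST was highest and did not overlap noise-exposed B6.CAST, as for 29.6% of all probe sets. The 3 lower groups overlapped their neighbours.

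The other tested probe set of Gjb6, 94391_at, did not separate the strains in this way. Its signal was 5693.7, 5221.9 and 3606.3 in control and 2094, 3087.8 and 4291 in noise-exposed 129X1/SvJ, and 6215.3 and 5015.7 in control and 4348.8 and 4347.2 in noise-exposed B6.CAST. The strains differed by 0.22 ± 0.28 without noise and by 0.48 ± 0.28 after it (adjusted p = 0.869 and 0.622 in limma), and the groups overlapped in both. A test of the disagreement between both probe sets was chosen after seeing the data. The log2 ratio of 102571_at to 94391_at, which has meaning only as a difference between arrays, was -0.50 ± 0.54 (SD, n = 6) in 129X1/SvJ and 0.13 ± 0.50 (SD, n = 4) in B6.CAST. Its strain difference of 0.62 gave p = 0.1 in a two-sided exact permutation test within control and within noise arrays, where the smallest possible p is 0.01. The probe sets were therefore not shown to differ in their strain effect.

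**Figure D2:**
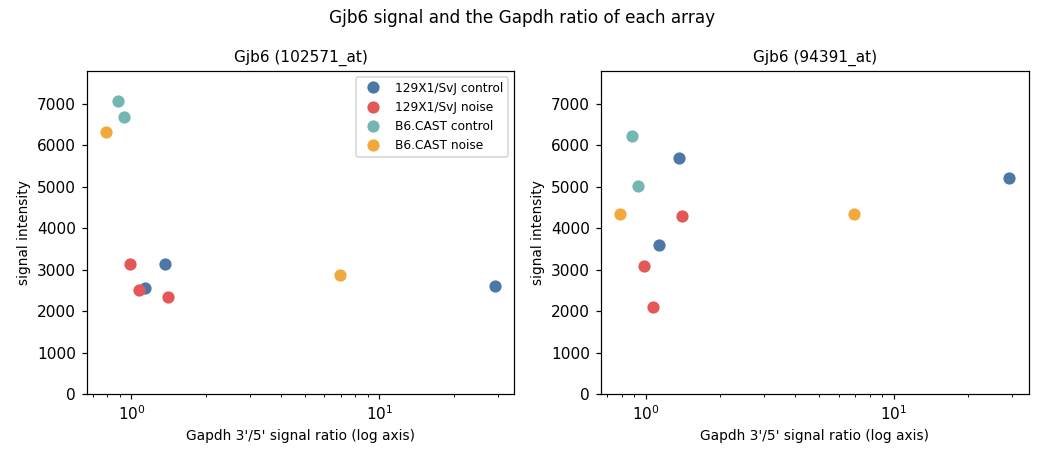
Signal intensity of the tested Gjb6 probe sets (linear) against the 3′ to 5′ Gapdh ratio of each array (log axis), with a point for each array coloured by group. On 102571_at the B6.CAST arrays with ratios of 0.79 to 0.93 lie at 6326.5 to 7080.2, and the B6.CAST array with a ratio of 6.94 lies at 2882.2, while on 94391_at the same array reads 4348.8, beside 4347.2 on the other noise array of its strain.

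The Gapdh ratio moved with part of this pattern. The low B6.CAST array on 102571_at was the one with the ratio of 6.94, and on the 3 high B6.CAST arrays the ratio was 0.881, 0.931 and 0.79. On the 129X1/SvJ array with a ratio of 29.2 the signal of 102571_at was 2616.3, within the range of 2343.7 to 3129.6 of that strain, whose other ratios were 0.984 to 1.40. The difference in control mice was 1.28 without both arrays of high ratio, a fit that leaves 1 noise array of B6.CAST. Only control array 2 of 129X1/SvJ belongs to this comparison. Without that array alone the difference was also 1.28, and it did not pass (adjusted p = 0.182 in limma). The summed signal of 10 stria vascularis markers differed between strains without overlap, at 29752.8 to 32101.5 in B6.CAST and 21383.6 to 24370.2 in 129X1/SvJ. Bright genes weigh most in such a sum. The mean log2 deviation of these markers, each from its own mean over the 10 arrays, overlapped. It was -0.20 to 0.29 in B6.CAST and -0.15 to 0.12 in 129X1/SvJ. Averaged over conditions, all 8 tested stria markers were higher in B6.CAST, with a median of 0.21 against -0.012 over all probe sets. Of these, 1 was called in limma for the averaged strain difference, the melanocyte gene Dct (0.69 ± 0.09, adjusted p = 0.00153). The summed signals of 13 supporting cell markers, at 3851 to 5132 and 3609.5 to 5019.1, and of 6 fibrocyte markers, at 60392.8 to 70843.4 and 51749.3 to 67338.5, overlapped between the strains. Of the 5 tested fibrocyte markers 1 was called in limma for the averaged strain difference, the matrix proteoglycan gene Dcn. It was lower in B6.CAST (-0.62 ± 0.11, adjusted p = 0.00985), while 3 of the 5 were higher there, with a list median of 0.21. Of 9 tested supporting cell markers 6 were lower in B6.CAST in this comparison, with a median of -0.35. None of the 9 was called, and 3 had an unadjusted p under 0.05, beside 15.3% of all probe sets. No listed marker of the stria, the supporting cells or the fibrocytes was at 0. Their part in the Gjb6 difference was not tested.

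After noise, both tested probe sets of Gjb6 had lower means in both strains, and no change passed. On 94391_at the effect was -0.63 ± 0.25 in 129X1/SvJ (95% interval -1.17 to -0.09, unadjusted p = 0.026 and adjusted p = 0.393 in limma) and -0.37 ± 0.30 in B6.CAST (adjusted p = 0.9999). The mean of both strains was -0.50 ± 0.19 (SE, n = 5 noise and 5 control arrays, adjusted p = 0.58), with an interval of -0.93 to -0.07. With 1 array left out the effect in 129X1/SvJ ranged from -0.37 without noise array 1 (adjusted p = 0.766) to -0.89 without noise array 3 (adjusted p = 0.123). In 129X1/SvJ the groups overlapped, since the third noise array was above the third control array, and in B6.CAST they did not, as for 29.6% of all probe sets. On 102571_at the effect was -0.03 ± 0.25 in 129X1/SvJ and -0.68 ± 0.30 in B6.CAST (adjusted p = 0.971 and 0.9999). In B6.CAST its groups did not overlap. There the effect was -0.08 without noise array 1 and -1.28 without noise array 2 (adjusted p = 0.126). The mean noise effect of 102571_at was -0.36 ± 0.19 (adjusted p = 0.736), which became -0.06 and -0.65 (adjusted p = 0.954 and 0.0864) without the same arrays in turn.

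**Figure D3:**
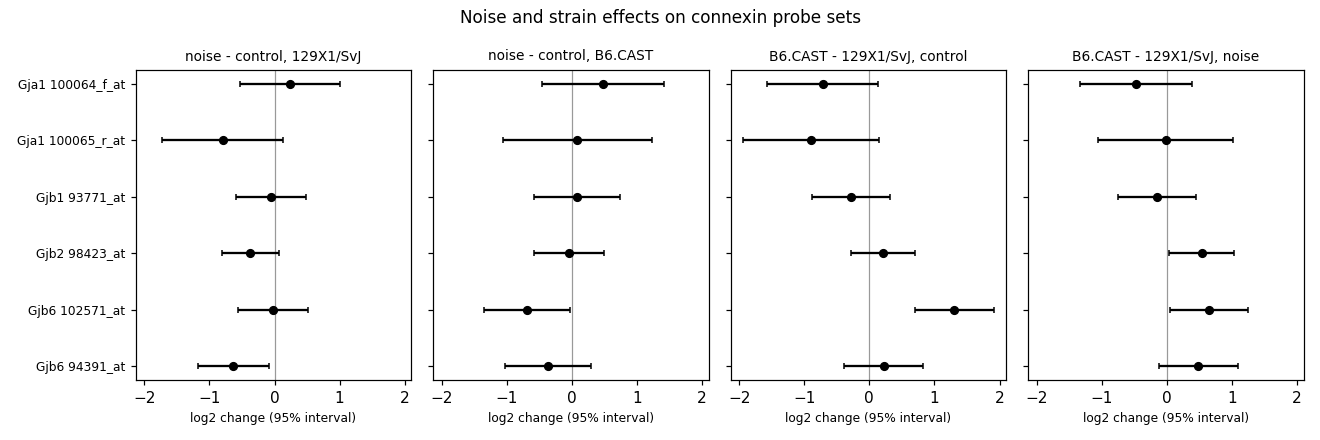
Log2 changes of the 6 connexin probe sets (points) with their 95% intervals from limma (bars) for noise against control in each strain and for B6.CAST against 129X1/SvJ under each condition; the comparisons share arrays. The interval of Gjb6 102571_at in control mice, 0.71 to 1.91, is the farthest from 0.

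Gja1 varied widely within groups and did not pass in any comparison. On 100064_f_at, a probe set whose suffix marks that it may match related sequences, the signal was 802.3, 529.3 and 349.7 in control and 915.9, 504.2 and 518.6 in noise-exposed 129X1/SvJ. In B6.CAST it was 432.3 and 220.5 in control and 552.1 and 351.4 in noise-exposed mice. Every group overlapped the next in the order of control B6.CAST, noise-exposed B6.CAST, control 129X1/SvJ and noise-exposed 129X1/SvJ. The noise effect of 129X1/SvJ was 0.23 ± 0.35 and that of B6.CAST 0.47 ± 0.43, while control mice of the strains differed by -0.72 ± 0.39 and noise-exposed mice by -0.48 ± 0.39 (adjusted p = 0.813, 0.9999, 0.561 and 0.756 in limma). The averaged strain difference was -0.60 ± 0.28 (adjusted p = 0.336 in limma). Gja1 is the only one of these connexin genes on chromosome 10, which also holds Cdh23. Whether Gja1 lies in the CAST segment of B6.CAST, and the part of that segment in its values, was not tested.

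The second Gja1 probe set, 100065_r_at, read between 30.5 and 137.6 and followed the first only loosely, with r = 0.36 over the 10 arrays, which share the strain and noise groups. Its suffix marks a probe set built under relaxed probe selection. In 129X1/SvJ the noise effect was -0.80 ± 0.42 (adjusted p = 0.486), opposite in sign to that of 100064_f_at, and in B6.CAST it was 0.08 ± 0.52. Its strain difference was -0.90 ± 0.47 in control mice (adjusted p = 0.542) and -0.02 ± 0.47 in noise-exposed mice. Bone is a tissue where Gja1 is abundant. The summed signal of 7 bone cell markers in control mice was 1547.6 to 2571.1 in 129X1/SvJ and 1292.7 to 2438.8 in B6.CAST. In noise-exposed mice it did not overlap, at 1805.9 to 2796.8 and 1343.5 to 1476.1. Averaged over conditions, 5 of 6 tested bone markers were lower in B6.CAST, with a median of -0.44 against -0.012 over all probe sets. Limma called 0 of them. The part of bone in the Gja1 values was not tested.

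Gjb1, too, passed in no comparison. It was 126.7, 102.8 and 183.2 in control and 134.2, 148.4 and 157.4 in noise-exposed 129X1/SvJ, and 111.6, 108.5, 112.5 and 119.2 on the control and then the noise arrays of B6.CAST. The 4 B6.CAST arrays lay within the range of control 129X1/SvJ, and each group overlapped the next in the order of the normalised means. The noise effect of 129X1/SvJ was -0.06 ± 0.24, that of B6.CAST 0.08 ± 0.30, and the mean of both was 0.01 ± 0.19 with a 95% interval of -0.41 to 0.43. The strains differed by -0.29 ± 0.27 without noise and by -0.15 ± 0.27 after it (adjusted p = 0.816 and 0.907 in limma). Of 10 tested markers listed for Schwann cells and oligodendrocytes, 0 were called in limma for noise or strain in any of the 4 pairs of groups. In control mice 4 of them had an unadjusted p under 0.05 between the strains, beside 11.1% of all probe sets, and 8 of 10 had a lower mean in B6.CAST, with a median of -0.38 against -0.05 over all probe sets. Averaged over both conditions 1 of 10 was called, beside 3.24% of all. This was the myelination regulator Egr2, which was lower in B6.CAST (-0.83 ± 0.17, adjusted p = 0.0189 in limma). At an unadjusted p under 0.05 in limma there were 7 of 10, beside 15.3% of all probe sets. Of the 10 markers 8 were lower and 2 higher in B6.CAST, with a median of -0.31.

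Whether noise acted differently on the connexins of both strains was asked by the difference of the noise effects, B6.CAST minus 129X1/SvJ. None of the 6 probe sets passed in limma, as for 0% of all probe sets, and 0 of 6 had an unadjusted p under 0.05, against 2.97% of all. The difference was -0.66 ± 0.39 for Gjb6 102571_at (95% interval -1.51 to 0.19) and 0.26 ± 0.39 for 94391_at (-0.59 to 1.12). It was 0.32 ± 0.32 for Gjb2 (-0.38 to 1.02), 0.13 ± 0.39 for Gjb1 (-0.71 to 0.98) and 0.24 ± 0.55 for Gja1 100064_f_at (-0.97 to 1.46). For Gja1 100065_r_at it was 0.88 ± 0.67 (-0.59 to 2.35). Intervals this wide leave room for changes in either direction. The value of 102571_at was -0.06 without noise array 1 of B6.CAST and -1.26 without noise array 2 (adjusted p = 0.2).

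Of 19 other connexins and pannexins listed, 7 were found on the array and 3 passed the filter. Gja5, a connexin of arteries, read 72.2 to 123.9, Gjb5, an epithelial connexin, 46.7 to 114.5, and Gjc1, of vascular muscle, 26.8 to 109.4. None of the 3 passed for noise or strain in limma, and 0 of 3 had an unadjusted p under 0.05. Their mean noise effects were -0.17 ± 0.22, -0.14 ± 0.22 and -0.17 ± 0.39. Gja3, Gja4, Gja10 and Gjd2 were below the filter, with medians of 9.25, 21.9, 2.15 and 9.75.

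Genes that act beside the connexins did not pass in any comparison. Of 17 tested genes for proteins that bind connexins or their scaffold, limma called 0 in each of the 6 comparisons. An unadjusted p under 0.05 was found for 3 of them for noise in 129X1/SvJ, beside 11.5% of all probe sets, and for 3 in the mean noise effect, beside 7.63%. The smallest p for the latter belonged to the tubulin gene Tubb5 (0.32 ± 0.09, adjusted p = 0.328) and the casein kinase gene Csnk1e (0.50 ± 0.21, adjusted p = 0.594). The averaged strain difference of Csnk1e was -0.84 ± 0.21 (adjusted p = 0.0528 in limma), just above the threshold. In that comparison 11 of the 17 genes were lower in B6.CAST and 6 were higher. Of 11 tested genes of potassium and endolymph handling, limma called 0 in each comparison, and for the mean noise effect 1 had an unadjusted p under 0.05, beside the same 7.63%. These were led by the carbonic anhydrase gene Car3 (-0.31 ± 0.10, adjusted p = 0.456) and the potassium-chloride cotransporter Slc12a7 (0.18 ± 0.11, adjusted p = 0.755). The median mean noise effect was 0.02 in the first list and 0.01 in the second, against -0.017 over all probe sets.

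Blood-derived markers moved between the groups in which connexins were compared. The summed signal of 11 neutrophil markers was 13047.4 to 38603.9 in noise-exposed 129X1/SvJ and 2466.4 to 2732.1 in noise-exposed B6.CAST, and in control mice the ranges of 3694.8 to 21848.3 and 6144 to 20470.4 overlapped. The summed signal of 5 erythroid markers was 22090.8 to 35895.1 and 7103.4 to 10310.7 in the noise-exposed groups. Both lists thus separated the strains in noise-exposed mice and overlapped in control mice. The part of blood cells in the values of any connexin was not tested. Of 9 tested macrophage markers, 1 was called for the mean noise effect in limma, Cd14, a receptor for bacterial products (0.86 ± 0.16, adjusted p = 0.0389), and of the tested markers of endothelium (8), skeletal muscle (8), hair cells (5) and neurons (10) limma called 0 for this effect.

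The genes whose values over the 10 arrays were most like those of each connexin were ranked by Pearson's r among 6505 genes, as a description only, since the arrays share groups and RNA quality. For Gjb2 these were Colgalt1 (r = 0.959), Crx (0.958), Lrp6 (0.945), Ankrd10 (0.942) and Plxnd1 (0.930), and 14 genes were above 0.9. For Gjb6 94391_at they were Oxct1 (0.978), Immp1l (0.976), Nol7 (0.973), Ccng1 (0.969) and Bcas2 (0.968), among 87 genes above 0.9. For Gja1 100064_f_at they were Rnf19a (0.923), the water channel gene Aqp4 (0.906), Msl2 (0.902), Spsb1 (0.901) and Csnk1e (0.888). For Gjb1, 0 genes exceeded 0.9, and the first were Slc25a36 (0.890), Ihh (0.878), Olfr94 (0.876), Ezh2 (0.849) and Ager (0.842). Neither Gjb2 nor Gjb6 was among the first 5 of the other, and their r over the arrays was 0.68 for 94391_at and 0.46 for 102571_at.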

How the data were processed

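The deposited file gives 1 linear signal intensity per probe set and array from one-colour hybridisation of biotin-labelled cRNA, per the labels' protocols. The authors' scaling is visible in the values, as each array's mean signal, without its lowest and highest 2%, lies between 499.21 and 499.83; the program used is not given in the sources used here. The intensities were turned into log2(intensity + 16), a scale on which the change of dim genes is understated, and quantile normalised over the 10 arrays. Control probe sets (66) and the lowest 30% of the rest by mean (under a signal of about 42.9) were dropped. In limma 3.58.1 under R 4.3.3, 4 group means were fitted to the remaining 8695 probe sets with a variance trend and 1 shared spread. The p-values rest on the spread between pools of mice, and the few arrays limit the precision. Symbols came from the platform annotation, updated by gene identifier against RefSeq (10839 of 10855 probe sets with 1 gene). Lists used the probe set of highest mean for each gene.

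The connexins, the 15 gene and marker lists and the alternatives were chosen with earlier results of these data known. Named genes are all members, the 5 most similar genes of each and, from each list, called genes or the 2 of smallest p for the mean noise effect, printed where they bear on connexins. The fit was tested on simulated data.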

Additional observations from a re-analysis of the deposited data

How the results depend on the processing

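The 6 comparisons and the added mean strain effect were refitted with each array left out, with the deposited scaling centred on array medians, pseudocounts of 1 and 64, no filter, no variance trend, the compared groups' arrays alone (only for pairs of groups), without both arrays of high Gapdh ratio, and with a replicate block. No noise effect on a connexin passed under any of these. The strain difference of Gjb6 102571_at in control mice kept its direction in all 18 refits. It passed with deposited scaling (1.28, 1 connexin called), pseudocount 64 (1.29, adjusted p = 0.0499 in limma, 1 called) and the control arrays alone (1.31, 1 called). It did not pass with pseudocount 1, without the filter or without the variance trend (adjusted p = 0.0593, 0.0963 and 0.136 in limma). Nor did it pass with the replicate block. Without both arrays of high ratio the difference was 1.28. With 1 array left out it was 1.25 to 1.41, with 0 to 1 called. In noise-exposed mice it was 0.05 to 1.25 with 1 array left out (0 to 1 called), and averaged over conditions 0.68 to 1.28 (0 to 1 called). A lone array left in a group is assumed to vary like the others.

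Same-numbered arrays deviated from their group means with correlations of -0.15, -0.18 and -0.39 in 129X1/SvJ and -0.17 in B6.CAST. No pairing by number was thus seen within a strain. With 2 arrays in each B6.CAST group, same and crossed numbers can differ only in sign. These correlations do not bear on a batch shared across the strains. With the replicate block, the averaged strain difference of 102571_at was 0.91 (adjusted p = 0.0814 in limma, not called) and that of Gja1 100064_f_at was -0.81 (adjusted p = 0.0419, called). The block changed no other connexin call. With the numbers of the B6.CAST noise arrays crossed, 0 connexins and 2 of all probe sets were called for noise in B6.CAST.

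Small effects that did not pass changed sign. Without both arrays of high ratio, noise in B6.CAST was -0.29 for Gja1 100065_r_at, -0.0047 for Gjb1 and 0.03 for Gjb2, the mean noise effect of Gjb1 was -0.09 and the difference of noise effects of Gja1 100064_f_at was -0.10. With 1 array left out, noise in 129X1/SvJ ranged from -0.06 to 0.52 for Gja1 100064_f_at, -0.19 to 0.11 for Gjb1 and -0.14 to 0.07 for Gjb6 102571_at. Noise in B6.CAST ranged from -0.29 to 0.46 for Gja1 100065_r_at, -0.0039 to 0.16 for Gjb1 and -0.34 to 0.24 for Gjb2. The mean noise effect of Gjb1 ranged from -0.05 to 0.10, and the difference of noise effects from -0.16 to 0.65 for Gja1 100064_f_at and -0.04 to 0.26 for Gjb1. Strain differences ranged from -0.08 to 0.50 for Gjb2 in control mice and from -0.39 to 0.36 for Gja1 100065_r_at in noise-exposed mice. The cause was not tested.

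Counts over all probe sets moved more. With 1 array left out they were 22 to 46 for noise in 129X1/SvJ (44 with all arrays), 0 to 5 in B6.CAST (4), 18 to 47 for the mean noise effect (40), 23 to 132 and 26 to 122 for strain in control (80) and noise-exposed mice (126), and 138 to 315 for the mean strain effect (282). Without both arrays of high ratio the same counts were 22, 0, 10, 36, 26 and 137. The compared groups' arrays alone gave 0 for noise in B6.CAST and 151 and 55 for the strain comparisons, and the replicate block gave 2, 34 and 44, and 146 for the mean strain effect. Noise in B6.CAST gave 2 with either other pseudocount, 1 without the filter and 0 without the trend. With deposited scaling the median over all probe sets was -0.113 for noise in 129X1/SvJ and 0.160 for the difference of noise effects, against -0.04 and 0.063.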

Other observations

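The genes most like the Gjb6 probe set 102571_at over the 10 arrays, looked up after its values were seen, were Pdia6 (r = 0.971), a protein disulfide isomerase of the endoplasmic reticulum, the nuclear receptor gene Rora (0.962), the helicase gene Wrn (0.928), Ociad1 (0.927) and the kinesin gene Kif3a (0.922), among 16 genes above 0.9. None of these was among the first 5 of 94391_at, and the r between both Gjb6 probe sets was 0.46.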
